A study of Rattus norvegicus with 20 samples.

Results

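Hmx2 (H6 family homeobox 2, ENSRNOG00000020638) is 1 of the 32545 genes in the deposited tables, and its level was followed in single rats during vasopressin escape. It was picked by its symbol, with its lower level in water-loaded rats already known. The values of water-loaded against control rats are therefore given for Hmx2 as a description, without a test. The samples were cortical collecting ducts dissected by hand from collagenase-treated left kidneys of 20 male Sprague-Dawley rats aged 5 weeks, 1 library per rat. All rats, controls included, had a minipump under the skin that delivered DDAVP, a selective agonist of the vasopressin V2 receptor, at 5 ng/hr, for 5 days per the series' design text. Control rats got 25 mL of water a day and water-loaded rats 50 mL a day, both in gelled food, with dissection 1, 2 or 4 days later. Each treatment had 3 rats at day 1, 4 at day 2 and 3 at day 4. Vasopressin escape is the loss of the kidney's water-retaining response when water intake stays high under sustained vasopressin action.

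The cortical collecting duct is a mosaic of principal cells and intercalated cells. Principal cells take up water through aquaporin-2 (Aqp2), whose transcription and membrane insertion are driven by vasopressin. Water leaves these cells through Aqp3 on the blood side. Intercalated cells move acid and base: type A cells export acid and carry the Slc4a1 exchanger on their blood side, and type B cells export bicarbonate through pendrin (Slc26a4). Foxi1 is the forkhead factor needed for intercalated cells to form. Hmx2 is a DNA-binding homeodomain factor known from the development of the inner ear and hypothalamus, where it acts beside its neighbour and close relative Hmx3. In the kidney its transcript has been described in type B intercalated cells. A whole-duct library mixes these cells, so fewer cells of a type and less RNA per cell cannot be told apart.

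The sequences just before the starts of Hmx2 and Aqp2 are shown because both genes had lower levels in the water-loaded rats, as given further on. Both are from RefSeq's promoter table for the build GRCr8, 250 bases that end at the base before the start listed there, 5′ to 3′ on the gene's strand. The expression files use rn6, so these positions serve only the sequences. Hmx2 lies at chr1:195749034-195749283 on the plus strand, with the match to TATAAA in capitals, and Aqp2 at chr7:132590036-132590285 on the plus strand, with CGTCA in capitals, which reads TGACG on the other strand.
Hmx2: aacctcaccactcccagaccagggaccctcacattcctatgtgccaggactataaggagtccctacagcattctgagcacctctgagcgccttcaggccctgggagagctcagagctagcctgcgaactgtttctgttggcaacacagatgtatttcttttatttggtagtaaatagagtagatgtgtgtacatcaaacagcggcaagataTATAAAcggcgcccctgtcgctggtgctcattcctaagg
Aqp2: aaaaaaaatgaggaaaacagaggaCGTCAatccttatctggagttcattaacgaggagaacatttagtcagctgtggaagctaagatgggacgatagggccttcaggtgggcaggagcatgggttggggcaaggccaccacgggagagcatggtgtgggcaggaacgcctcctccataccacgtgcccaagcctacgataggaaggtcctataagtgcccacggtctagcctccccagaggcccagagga
Both strands were searched for the TATA box core TATAAA, the cAMP response element TGACGTCA, its core TGACG (which also matches inside the whole element), the forkhead motif GTAAACA and the Hmx core CAAGTG. The Hmx2 window held TATAAA at 39 to 34 bases before the start and none of the other motifs. TATAAA was present in 12.9% of the 33469 promoter windows of that length. The Aqp2 window held TGACG at 226 to 222 bases before the start, a motif found in 18.2% of windows, and no other. TGACGTCA was found in 1.59% of windows, GTAAACA in 3.21% and CAAGTG in 11.7%. Foxi1 had CAAGTG on the opposite strand at 181 to 176 bases before its start, and the Slc26a4 and Hmx3 windows held none of the motifs. Of the bases in the Hmx2 window 50% were G or C, against 75.2% for Hmx3, 54.4% for Aqp2, 59.2% for Foxi1, 65.6% for Slc26a4 and a median of 51.2% over all windows. These matches describe letters and were not tied to any reading of binding.

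Hmx2 was one of the most abundant transcripts of the duct. Its mean FPKM (fragments per kilobase of gene and per unit of library size, the authors' per-length scale) over the 20 rats was 1045 ± 393 (SD, n = 20), the 84th highest of 32545 genes. Its rank ran from 40 to 230 in single libraries. On the same per-length scale Aqp2 was at 5518 (7th), Aqp3 at 1239 (63rd), Slc26a4 at 938 (103rd), Slc4a9, the bicarbonate carrier on the blood side of type B cells, at 376 (293rd), Slc4a1 at 310 (357th) and Foxi1 at 255 (437th). Of these genes, Slc26a4 was the nearest to Hmx2 in level. Hmx2 took 35305 to 155578 reads per library, 0.0785% to 0.318% of the reads on genes.

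Among homeobox genes Hmx2 had the highest FPKM in 20 of 20 libraries. The tables held 203 homeobox rows, and 47 of them had a mean of at least 1 FPKM. Hmx2 made up 42.5% of the summed mean FPKM of all 203. Among the others were Hoxd8 at 185 ± 77.2 FPKM (SD, n = 20), 5.66-fold below Hmx2, the paired-box factor Pax8 at 166 FPKM and Hoxd9 at 151 FPKM. The lowest Hmx2 library, at 496 FPKM, was above the highest library of each of these 3 genes.

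**Figure D1:**
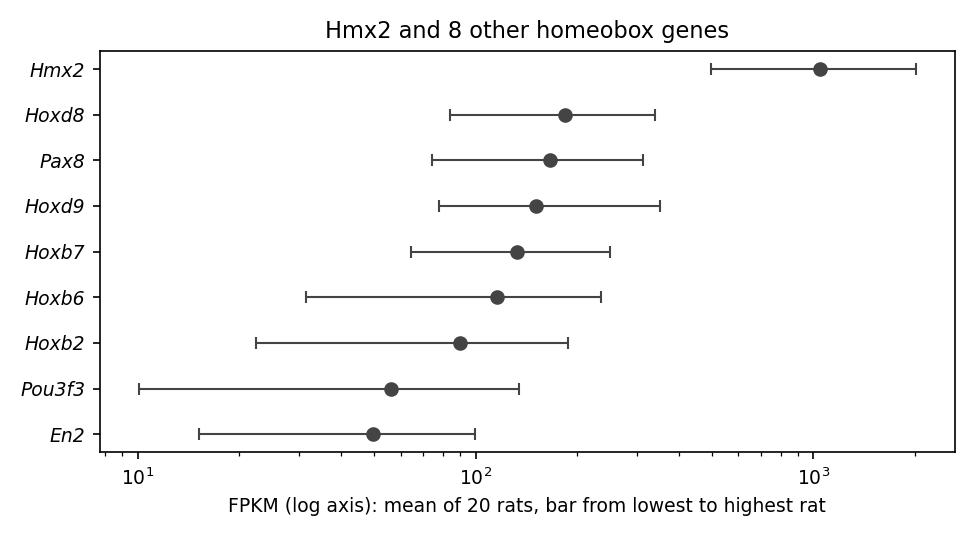
FPKM (log axis) of Hmx2 and of 8 other homeobox genes with a high mean; points are means of 20 rats and bars run from the lowest to the highest rat. The Hmx2 bar, from 496 to 2012, starts to the right of where the Hoxd9 bar ends, at 352.

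The 2 other Hmx genes were low or at 0. Hmx1 had 0 reads in all 20 libraries, where 3 reads, the limit that a count of 0 allows, are worth 0.0414 to 0.0925 CPM (reads scaled to the size of the library and by TMM factors). Hmx3 had 2 to 776 reads and a mean of 3.48 FPKM. In CPM, Hmx3 ran from 0.0657 to 18.2 among control rats and from 0.0529 to 16.0 among water-loaded rats, so the groups overlapped along nearly their whole range. Its fitted log2 difference, water load minus control over the average of days, was -0.64 (SE 0.82, adjusted p = 0.853). The interval, -2.35 to 1.08 on the log2 scale, covers no change as well as a fall or a rise of more than 1 unit. In the RefSeq gene order Hmx3 precedes Hmx2, and Bub3, a spindle checkpoint gene, follows it; they are 2 of the 6 nearest entries with a row in the files. Bub3 was at 59.4 ± 24.2 CPM in control rats and 75.9 ± 24.3 CPM in water-loaded rats (SD, n = 10 each), and its log2 difference of 0.39 did not pass the test (adjusted p = 0.681). Neither neighbour was called.

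At every day, each water-loaded rat had less Hmx2 than each control rat. At day 1 the control rats had 2346, 2054 and 2119 CPM and the water-loaded rats 1349, 1218 and 1224 CPM. At day 2 the control rats had 1783, 1754, 1596 and 1898 CPM and the water-loaded rats 773, 1138, 794 and 874 CPM. At day 4 the control rats had 3328, 2928 and 1967 CPM and the water-loaded rats 1346, 1221 and 1549 CPM. The ranges did not overlap at any day, and day 4 control rat 3 lay well below the other two of its group. Between the treatments, the fitted level was 1.72-fold lower at day 1, 1.96-fold lower at day 2 and 2.00-fold lower at day 4 in water-loaded rats, which is -0.78, -0.97 and -0.998 on the log2 scale. Over the average of days it was 1.89-fold lower (log2 difference -0.92). With any 1 library left out, that average stayed between -0.97 and -0.86. The median of all 14472 genes tested was 0.01 on the log2 scale for the same average.

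Pooled over days, the highest water-loaded rat, at 1549 CPM on day 4, was just under the lowest control rat, at 1596 CPM on day 2. Hmx2 was 1 of 4 genes, 0.0276% of those tested, whose 10 water-loaded rats were all below the 10 control rats. The others were Lmo4, Sfrp2 and Snn, named here after their values were seen. Every water-loaded rat was below every control rat at each of the 3 days in 14 genes, 0.0967% of those tested. Taken by day, this held for 5.17% of genes at day 1, 1.88% at day 2 and 6.73% at day 4. Nothing is read from these shares for Hmx2, since it was chosen by the same contrast.

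In FPKM, which uses library totals with no TMM factor, the day-by-day separation was kept and the pooled one was not. On day 1 the FPKM of control rats were 954, 1232 and 1344, on day 2 they were 1139, 1040, 1110 and 1218, and on day 4 they were 2012, 1674 and 1449. Those of water-loaded rats were 933, 528 and 798 on day 1, then 496, 735, 576 and 519 on day 2, then 1034, 942 and 1165 on day 4. The lowest control rat, at 954 FPKM, was day 1 control rat 1, whose TMM factor of 0.644 was the lowest of the 20. Highest of the water-loaded rats was day 4 rat 3, at 1165 FPKM. No gene separated all 10 water-loaded from all 10 control rats on this scale (0 of 14472).

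**Figure D2:**
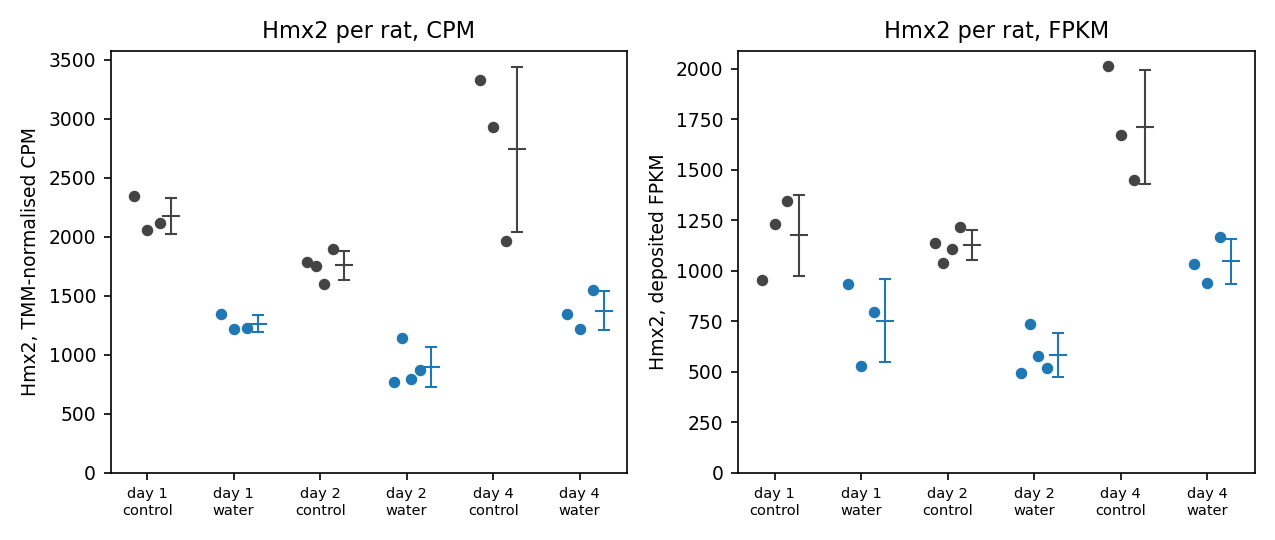
Hmx2 in TMM-normalised CPM (left) and deposited FPKM (right) by group; points are single rats, and the dash and bar give the mean and SD of 3 or 4 rats. Water-loaded rats (blue) lie below control rats (grey) of the same day on both scales, and day 2 is lowest and day 4 highest in both treatments.

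By group mean the order in CPM was day 4 control (2741 ± 699, SD, n = 3), day 1 control (2173 ± 153, n = 3), day 2 control (1758 ± 125, n = 4), day 4 water load (1372 ± 165, n = 3), day 1 water load (1264 ± 73.7, n = 3) and day 2 water load (895 ± 168, n = 4). Neighbours in this order whose rats overlapped were day 4 and day 1 control, and day 4 and day 1 water load. The other neighbours did not overlap in CPM. In FPKM the order was the same, with means of 1712, 1177, 1127, 1047, 753 and 582. There day 4 control stood apart from day 1 control, and day 4 water load from day 1 water load. Day 1 and day 2 control, day 2 control and day 4 water load, and day 1 and day 2 water load overlapped. Whether neighbours overlapped thus changed with the scale for every pair.

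Hmx2 followed the same course over the days in both treatments: lowest at day 2 and highest at day 4. The contrast between days did not serve to choose the gene, so it was tested. Every day 2 rat was below every day 4 rat within each treatment, in CPM and in FPKM; in CPM this held for 202 genes, 1.4% of those tested. Among control rats, day 4 was above day 2 by 0.64 on the log2 scale (95% interval 0.22 to 1.06, adjusted p = 0.326). Among water-loaded rats, day 4 was above day 2 by 0.62 (interval 0.20 to 1.04, adjusted p = 0.901). Neither passed when adjusted over all genes, although both intervals, which cover a single gene, lay above 0. The F test over the 3 days gave an adjusted p = 0.144 in edgeR among control rats, in which 2.45% of genes were called. Among water-loaded rats it gave an adjusted p = 0.274, with 0.263% of genes called. Day 2 minus day 1 was -0.31 among control rats (interval -0.73 to 0.11, adjusted p = 0.409) and -0.50 among water-loaded rats (interval -0.92 to -0.08, adjusted p = 0.294). Day 4 minus day 1 was 0.34 among control rats (interval -0.12 to 0.79, adjusted p = 0.388) and 0.12 among water-loaded rats (interval -0.33 to 0.57, adjusted p = 0.887).

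The Hmx2 difference between treatments did not change detectably from day to day. The difference at day 2 minus that at day 1 was -0.19 on the log2 scale (SE 0.29, interval -0.79 to 0.41), and at day 4 minus day 1 it was -0.22 (SE 0.31, interval -0.85 to 0.42). The F test of a difference by day gave an adjusted p of 1 in edgeR. No gene passed this test in edgeR (0 of 14472, with 1239 genes at an unadjusted p under 0.05), while DESeq2 called 183. The intervals leave room for a difference between days of up to 0.85 on the log2 scale.

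Pooled over the groups, Hmx2 varied little between rats of a group. Its within-group SD was 0.21 on the log2 CPM scale, against 0.43 for Aqp2, 0.26 for Slc26a4, 0.33 for Foxi1, 0.50 for Aqp3, 0.39 for Slc4a1 and 0.64 for Slc4a9. Among the 131 genes with a mean of at least 1000 CPM it was the 2nd smallest, where the median was 0.43. Among all genes tested it was the 6th smallest, where the median was 1.40 and includes many genes with few reads. By group the SD of Hmx2 ran from 0.083 (day 1 water load) to 0.40 (day 4 control). Hmx2 was chosen with its treatment difference known, which a small spread makes easier to see, so these ranks are a description.

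Aqp2, the channel that sets water permeability, was lower in water-loaded rats and had a larger spread than Hmx2. At day 1 Aqp2 was at 30153, 19026 and 18077 CPM in control rats and at 9955, 18327 and 12524 CPM in water-loaded rats. At day 2 it was at 19126, 21428, 26933 and 29965 CPM in control rats and at 9239, 13905, 9252 and 18061 CPM in water-loaded rats. At day 4 it was at 42882, 55351 and 25370 CPM in control rats and at 10716, 13199 and 18453 CPM in water-loaded rats. The Aqp2 ranges overlapped at day 1 in CPM, though not in FPKM, and did not overlap at days 2 and 4. Over the average of days the log2 difference was -1.07 (SE 0.19, adjusted p = 0.0262), one of 23 genes called, 0.159% of those tested. With the replicate number as a block the adjusted p was 0.185, and without 9 single libraries it ran from 0.0502 to 0.0910: day 1 control rat 1, day 1 water-loaded rat 3, day 2 control rat 3, day 2 water-loaded rats 1 and 2, day 4 control rats 1 and 2, and day 4 water-loaded rats 1 and 2. By day the Aqp2 difference was -0.72, -0.95 and -1.54, none called in edgeR, while DESeq2 called the difference at day 4 (-1.53, adjusted p = 0.0142). In edgeR 0 genes were called at any single day, with 2254, 757 and 1045 genes at an unadjusted p under 0.05 at days 1, 2 and 4; DESeq2 called 1132, 77 and 319.

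The intercalated cell genes compared with Hmx2 gave no call between treatments. Slc26a4 at day 1 was at 1745, 2139 and 1989 CPM in control rats and at 2543, 2814 and 2199 CPM in water-loaded rats. At day 2 it was at 3495, 4553, 3305 and 3843 CPM in control rats and at 2318, 3074, 3315 and 4808 CPM in water-loaded rats. At day 4 it was at 2612, 2906 and 3166 CPM in control rats and at 2863, 2241 and 3176 CPM in water-loaded rats. The water-loaded rats were all above the control rats at day 1 in CPM, where 5.71% of genes were so ordered, but not in FPKM, and the ranges overlapped at days 2 and 4. Over the average of days the log2 difference of Slc26a4 was 0.04 (SE 0.13, interval -0.23 to 0.32, adjusted p = 0.995). Over days the genes also differed in course: in control rats Slc26a4 rose by 0.96 on the log2 scale from day 1 to day 2 (SE 0.23, adjusted p = 0.0426, 1.34% of genes called), while its F test over days had adjusted p = 0.0591.

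Foxi1 at day 1 was at 330, 333 and 285 CPM in control rats and at 417, 680 and 384 CPM in water-loaded rats. At day 2 it was at 494, 671, 728 and 417 CPM in control rats and at 404, 432, 555 and 744 CPM in water-loaded rats. At day 4 it was at 854, 1088 and 855 CPM in control rats and at 705, 507 and 674 CPM in water-loaded rats. Foxi1 was thus higher in every water-loaded rat at day 1, overlapped at day 2, and was lower in every water-loaded rat at day 4 in CPM, but overlapped there in FPKM. As given above, every water-loaded rat was above every control rat at day 1 in 5.71% of genes. At day 4 every water-loaded rat was below every control rat in 6.73%. Over the average of days its log2 difference was -0.01 (SE 0.16, interval -0.34 to 0.32, adjusted p = 1.00), and the sign turned with scaling, at 0.10 on library totals. In control rats Foxi1 rose from day 1 to day 4 by 1.56 on the log2 scale (SE 0.29, adjusted p = 0.0120, 2.4% of genes called; F test over days adjusted p = 0.0236). The F test was not passed without day 1 control rat 1 (adjusted p = 0.0849), day 4 control rat 1 (0.0561) or day 4 control rat 2 (0.0630).

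**Figure D3:**
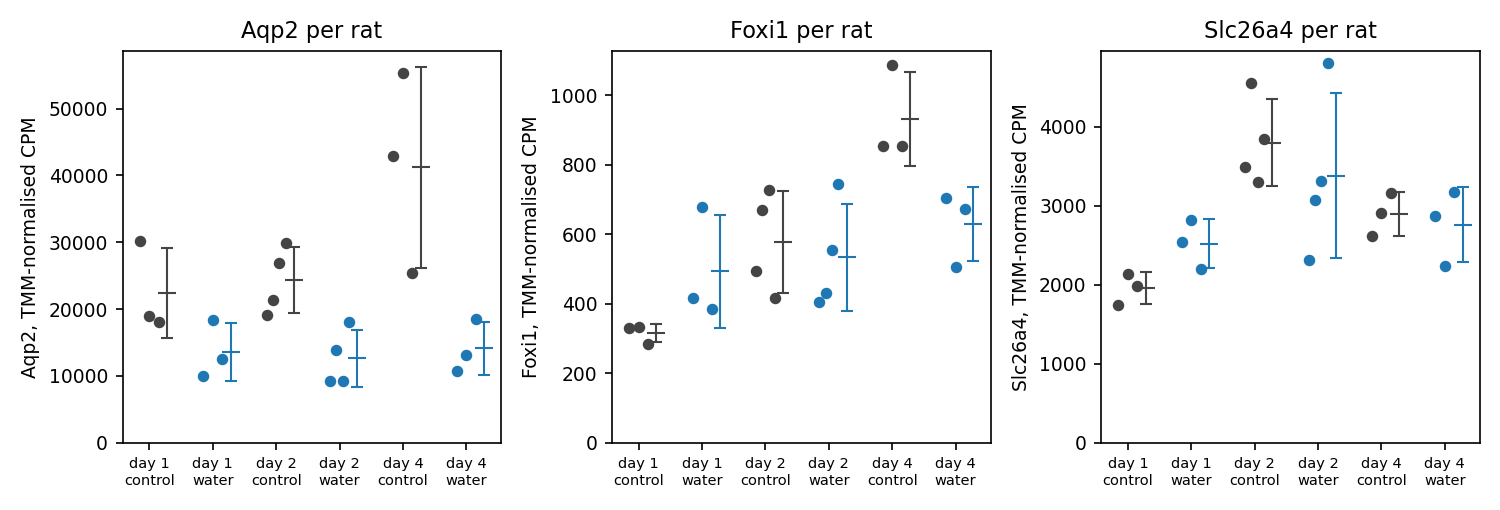
TMM-normalised CPM of Aqp2, Foxi1 and Slc26a4 by group; points are single rats, and the dash and bar give the mean and SD of 3 or 4 rats. Mean Aqp2 is lower with water load at each day, mean Foxi1 is higher at day 1 and lower at day 4, and mean Slc26a4 is highest at day 2 in both treatments.

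Ratios within a library need no scaling between libraries, and they show the same contrast between the genes. The Hmx2 to Slc26a4 ratio of FPKM was 2.27 ± 0.402 in control and 1.03 ± 0.132 in water-loaded rats at day 1 (SD, n = 3 each). It was 0.948 ± 0.114 and 0.569 ± 0.174 at day 2 (n = 4 each), and 1.96 ± 0.665 and 1.01 ± 0.0793 at day 4 (n = 3 each). At each day every water-loaded rat was below every control rat, with log2 differences of -1.14, -0.78 and -0.89. The ratio to Slc4a1 was likewise lower in every water-loaded rat of each day, by -1.04, -1.40 and -1.29 on the log2 scale. The ratio to Foxi1 was separated at day 1 alone, and its log2 differences were -1.38, -0.87 and -0.40. The ratio to Slc4a9 overlapped at each day, with log2 differences of -1.06, -0.76 and -0.62. These values contain the Hmx2 contrast and were not tested.

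Against Aqp2 the picture differed. The Hmx2 to Aqp2 ratio of FPKM was 0.240 ± 0.0489 in control and 0.237 ± 0.0820 in water-loaded rats at day 1 (SD, n = 3 each), and 0.177 ± 0.0378 and 0.178 ± 0.0422 at day 2 (n = 4 each). The treatments overlapped at both days, with log2 differences of -0.05 and -0.0025. At day 4 the ratio was 0.165 ± 0.0338 in control and 0.239 ± 0.0523 in water-loaded rats (n = 3 each), with every water-loaded rat higher and a log2 difference of 0.54. These values were not tested either.

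**Figure D4:**
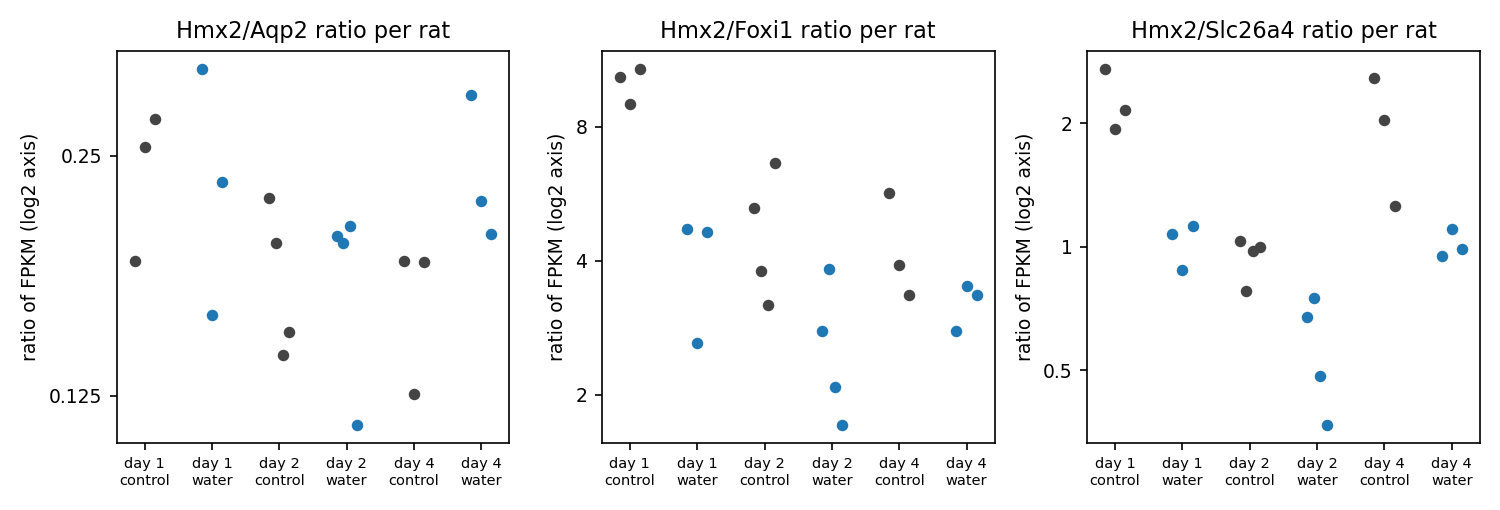
Ratio of Hmx2 FPKM to that of Aqp2, Foxi1 and Slc26a4 in each rat (log2 axis), by group. The ratio to Slc26a4 is lower in every water-loaded rat (blue) of each day, and that to Aqp2 overlaps at days 1 and 2 and is higher in water-loaded rats at day 4.

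Whether single rats with more Hmx2 also had more of another gene was tested within groups, since that uses deviations from the group means and not the treatment contrast. Over the 20 rats, the deviations of Hmx2 and Aqp2 on the log2 scale gave Pearson's r = 0.543 (within-group permutation p = 0.0767, adjusted over 6 genes 0.460) and Spearman's rho = 0.498 (permutation p = 0.0832, adjusted 0.499). Without the 2 rats farthest from the median Aqp2 deviation, r was 0.577. Among the 10 control rats alone r was 0.691 (permutation p = 0.139, adjusted 0.678), and among the 10 water-loaded rats alone it was 0.383 (permutation p = 0.393, adjusted 0.985). Without the 2 rats farthest from the median Aqp2 deviation of each treatment, r was 0.410 in control and 0.649 in water-loaded rats. The relation with Aqp2 did not pass its test over the 20 rats or in either treatment. With Aqp3, Foxi1, Slc26a4, Slc4a1 and Slc4a9, r was 0.0375, -0.0701, 0.0399, -0.0889 and -0.0874, each with an adjusted permutation p of 0.902. Their Spearman's rho values were -0.0662, -0.0165, 0.110, -0.110 and -0.200, each with an adjusted permutation p of 0.951. Without the 2 farthest rats r was -0.0652, -0.0401, -0.111, -0.165 and -0.170, in the same order.

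**Figure D5:**
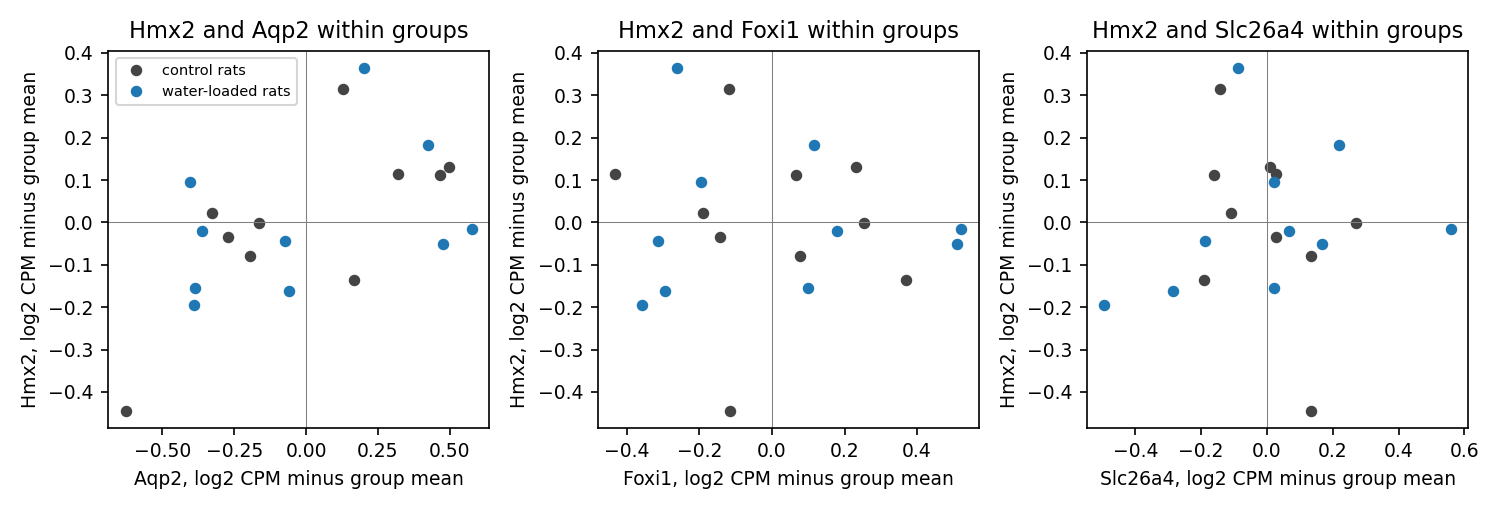
Deviation of Hmx2 from its group mean against that of Aqp2, Foxi1 and Slc26a4 (log2 CPM), 1 point per rat, control rats grey and water-loaded rats blue. Points rise to the right for Aqp2 (r = 0.543), which did not pass its within-group permutation test (adjusted p = 0.460). They show no clear slope for Foxi1 (r = -0.0701) or Slc26a4 (r = 0.0399).

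Likeness of a whole profile was measured as the root mean square difference of centred log2 CPM over the 20 rats, among 7372 genes with a mean of at least 10 CPM. A flat profile lies 0.56 from Hmx2, and 3.84% of these genes were closer than that. Nearest was Tle2, a Groucho-type co-repressor, at 0.27. Tle2 was at 326 ± 130 CPM in control rats and 176 ± 58.4 CPM in water-loaded rats (SD, n = 10 each). Then came Col18a1, a basement membrane collagen, at 0.31, Smarcc2, a subunit of the SWI/SNF chromatin remodeller, at 0.31, Llgl2, an epithelial polarity gene, at 0.32, and Trmt112, an activator of methyltransferases, at 0.34. Aqp2 was 12th, at 0.38. Foxi1 was 1012th and Slc26a4 1216th. This measure includes the treatment contrast that chose Hmx2, so it describes the profiles only.

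The marker lists place these values in the whole duct. Of 11 principal cell genes, all tested, 1 was higher and 10 were lower over the average of days. Their median log2 difference was -0.28, against 0.01 for all genes. In edgeR 5 of them had an unadjusted p under 0.05, and Aqp2 and Aqp3 were called lower (0.0829% of genes were called lower). Under the alternatives 1 to 3 of the 11 were called. Aqp3 fell by 1.59 on the log2 scale (SE 0.21, adjusted p = 0.00229). Hsd11b2, which shields the mineralocorticoid receptor from cortisol-like steroids, was at -0.22 (adjusted p = 0.757), and the vasopressin receptor gene Avpr2 at -0.28 (adjusted p = 0.576). Over all 14472 genes tested, 1949 had an unadjusted p under 0.05 in edgeR for this average, and DESeq2 called 714. Of 8 genes of intercalated cells in general, 6 were higher and 2 lower, with a median of 0.30. For these edgeR called 0, with 4 at an unadjusted p under 0.05, and DESeq2 called 1. Among them Car2, a carbonic anhydrase, was at 0.46 (adjusted p = 0.344), the ammonia channel gene Rhcg at 0.13 (adjusted p = 0.861) and the proton pump subunit gene Atp6v1c2 at -0.41 (adjusted p = 0.233). Of 5 type A genes, 2 were higher and 3 lower, with a median of -0.09; edgeR and DESeq2 called 0, with 1 at an unadjusted p under 0.05 in edgeR. Slc4a1 was at 0.32 (adjusted p = 0.445). Kit, a receptor tyrosine kinase gene of type A cells, was called over days among control rats (adjusted p = 0.0165), where 2.45% of all genes were, but not without day 1 control rat 1 (0.0742) or day 4 control rat 1 (0.0582).

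Apart from Hmx2, the type B list held 3 genes, Slc26a4, Insrr and Slc4a9, and edgeR and DESeq2 called 0, with 0 at an unadjusted p under 0.05 in edgeR. Their log2 differences over the average of days were 0.04, -0.08 and -0.09, and the fitted Hmx2 difference, -0.92, was lower than each. For this average edgeR called 0.159% of all genes tested and DESeq2 called 714 genes. Insrr, an alkali-sensing receptor, was at 2172 ± 474 CPM in control rats and 2042 ± 401 CPM in water-loaded rats (SD, n = 10 each). Pooled over days, the summed type B genes ran from 3990 to 7901 CPM in control rats and from 4009 to 7944 CPM in water-loaded rats. By day the mean sums in control and water-loaded rats were 4206 ± 225 and 4819 ± 451 CPM at day 1 (SD, n = 3 each). They were 6758 ± 781 and 6183 ± 1729 CPM at day 2 (n = 4 each), and 7698 ± 292 and 6837 ± 1085 CPM at day 4 (n = 3 each). All 3 type B genes were higher in water-loaded rats at day 1 and lower at days 2 and 4. None was called in edgeR, which called 0 of 14472 genes at any single day. Over days among control rats Slc4a9 rose, by 2.32 on the log2 scale from day 1 to day 4 (SE 0.49, adjusted p = 0.0184; F test adjusted p = 0.0324). That F test was not passed on library totals (adjusted p = 0.0604), without day 1 control rat 1 (0.130) or 3 (0.0593), or without day 4 control rat 1 (0.0897), 2 (0.0593) or 3 (0.0599).

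Of 30 transcription factors known from the collecting duct, 29 were tested; 14 were higher and 15 lower over the average of days, with a median of -0.01. Of these edgeR called 0, with 8 at an unadjusted p under 0.05, and 1 without day 1 control rat 3. DESeq2 called 4. Over all 14472 genes tested, 1949 had an unadjusted p under 0.05 in edgeR and DESeq2 called 714. Gata2, a zinc-finger factor, was at -0.48 (adjusted p = 0.285). Of 70 other homeobox genes tested, 30 were higher and 40 lower, with a median of -0.18. Of these edgeR called 0, with 12 at an unadjusted p under 0.05, and 1 without day 1 control rat 3. DESeq2 called 7. Over all 14472 genes edgeR called 0.159%, with 1949 at an unadjusted p under 0.05, and DESeq2 called 714. Hoxd8 was at -0.75 (adjusted p = 0.105), Pax8 at -0.49 (adjusted p = 0.445) and Hoxd9 at 0.01 (adjusted p = 1.00). Over days among control rats the F test of edgeR called 1 of these 70, Hoxd9 (adjusted p = 0.0171). Hoxd9 was not called without day 1 control rat 1 (adjusted p = 0.0969). Of all genes edgeR called 2.45% in this test. DESeq2 called 10 of the 70. Over all 14472 genes, settings other than the main one called 185 to 1589, so the 10 are not read as an excess.

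Per library, 12665 to 15266 genes had a read. Markers of other cells were uneven between rats. The 8 proximal tubule genes summed to 13.2 to 1118 CPM in control rats and 17.1 to 3623 CPM in water-loaded rats, the highest being day 1 water-loaded rat 2, in which Hmx2 was at 1218 CPM. The 4 stromal genes reached 1464 CPM in 1 day 1 control rat and 84.2 CPM at most in water-loaded rats. Of the 3 stromal genes tested, Col1a1 and Pdgfrb were called by the F test over days among control rats (adjusted p = 0.0419 and 0.0495). Of all genes 2.45% were called there. The count of 2 stromal genes moved under 23 of 28 alternatives. The 4 loop and distal tubule genes summed to 1.08 to 698 CPM in control and 5.35 to 332 CPM in water-loaded rats, the endothelial genes to 5.65 to 365 and 4.17 to 267 CPM, the immune genes to 0.635 to 31.5 and 6.79 to 30.8 CPM, and the papillary surface and transitional epithelium genes to at most 8.05 and 1.73 CPM. Pvalb, Krt5 and Upk3a were at 0 in all 20 libraries. Day 1 control rat 1 and day 1 water-loaded rat 2 had the lowest TMM factors, 0.644 and 0.686. Without them the Hmx2 difference over the average of days was -0.88, against -0.92 with them. The highest proximal and loop sums of control rats, 1118 and 698 CPM, both at day 2, stayed in. The part of other cells in the Hmx2 difference was not tested.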

How the data were processed

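The authors deposited whole-number counts of reads per gene, 1 column per rat, and FPKM values of the same 20 libraries. Trimmomatic 0.32, STAR 2.4.0.1, SAMtools, HTSeq and rn6 appear, with no settings, in the submitters' processing notes; the sources used here give neither the annotation nor whether counting used strand, so reads of overlapping antisense transcripts cannot be told apart. Per the labels' protocols, cDNA was amplified from tubule lysate by a single-cell method, which can raise the spread of genes with few reads. From 31.5% to 35.6% of a library's counts stood in 5 lines without a gene and were left out. The deposited FPKM of Hmx2 imply a length of 1582 bases in every library; FPKM served for levels between genes and for alternatives. Libraries held 33527913 to 74868598 reads on genes; without molecular identifiers amplified reads do not count molecules, so the limits for counts of 0 cover counting error only.

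Counts were tested with edgeR 4.0.16 (R 4.3.3): filterByExpr on group (14472 genes), TMM factors, 1 robust quasi-likelihood fit over all libraries with a mean per group, and Benjamini-Hochberg adjustment over all genes at 0.05. The average of days weighs the 3 days equally. log2 CPM used a prior count of 2. Each library is a separate rat. Correlations used 100000 permutations within groups. Alternatives were DESeq2 1.42.0 and its size factors, library totals, no filter, limma 3.58.1 on log2(FPKM + 1) and log2(FPKM + 0.1), each library left out, 2 uneven libraries left out, and the replicate number as a block. Comparing Hmx2 over all rats on other scalings was chosen after seeing the data. Same-numbered rats correlated at 0.233, 0.175, 0.265 and 0.334 at day 2, all over 0.1, and at -0.240 to 0.0611 at days 1 and 4; the source of the numbers is the labels, which do not say what they mark. The tests were tested on simulated data. For edgeR, the simulated dispersion (spread between rats) of each gene was set to 0.05 of the fitted value. That is less spread than in these data, so no power or error rate is read from it.

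Hmx2, the comparison genes and the 12 gene lists were chosen with earlier results of these data known. Named were Hmx2, its comparison genes and paralogs, the 6 correlation genes, the 5 nearest profiles with at least 10 CPM and a gene symbol, neighbours, the homeobox genes next in FPKM (1 named by this rule is not reported here), list members called, and up to 3 members per list with the highest FPKM. Sequences and gene order are RefSeq's (GRCr8), matched by symbol.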

Additional observations from a re-analysis of the deposited data

Results flagged for a closer look

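The water load effect on Foxi1 had opposite signs at day 1 and day 4, at 0.64 and -0.57 on the log2 scale, and the day 4 effect minus the day 1 effect was -1.21 (SE 0.41, interval -2.06 to -0.36). After adjustment over all genes in edgeR this difference did not pass (adjusted p = 0.327). Every water-loaded rat was above the control rats at day 1 and below them at day 4 in CPM, while in FPKM the day 4 ranges overlapped. Of all genes tested, 5.71% were so ordered at day 1 and 6.73% at day 4. Neither single-day Foxi1 effect was called in edgeR (adjusted p = 0.297 at day 1 and 0.706 at day 4). For Hmx2 the day 4 effect minus the day 1 effect was -0.22 (interval -0.85 to 0.42, adjusted p = 0.943).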

How the results depend on the processing

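The Hmx2 difference over the average of days stayed negative under all 28 alternatives, from -0.97 to -0.86 with 1 library left out and from -0.91 to -0.77 otherwise. At day 4 it was -0.71 on library totals and -0.70 on both FPKM scales, which lack TMM factors and move the median of all genes at day 4 to 0.23 (library totals), 0.19 (FPKM + 1) and 0.35 (FPKM + 0.1). On those scales the lowest control rat fell below the highest water-loaded rat, by -0.288 (library totals, FPKM + 0.1 and FPKM + 1). The tests of Hmx2 over days and by day passed under none of the 28 alternatives each.

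Genes called over the average of days numbered 23, and 12 on library totals, 13 with log2(FPKM + 0.1), 714 in DESeq2, 5 with the replicate block and 6 to 37 with 1 library left out. Genes called over days in control rats numbered 355, 185 to 1589 under other settings, and 43 without day 1 control rat 1, 72 without day 4 control rat 1 and 123 without day 4 control rat 2. Alternatives for Kit, Hoxd9 and counts at single days were chosen after seeing the data. Over days in water-loaded rats 38 were called, 11 to 517 under other settings and 5 without day 1 water-loaded rat 2. The block left Aqp2 at -1.08 (adjusted p = 0.185). Of the genes named between treatments it ended no other call. With the replicate number shared across days as a block, the F test of Hmx2 over days in control rats had adjusted p = 0.201. Aqp2 ranged from -1.16 to -0.98 with 1 library left out.

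Near 0, signs turned. Foxi1 over the average of days was 0.0043 with DESeq2 size factors and in the DESeq2 test, 0.10 on library totals (0.097) and on both FPKM scales (0.101 and 0.102), and -0.11 to 0.043 with 1 library left out; at day 2 it ran from -0.29 to 0.016. Slc26a4 over the average was -0.0092 without the 2 uneven libraries and -0.011 to 0.097 with 1 left out; at day 4 it was 0.18 on library totals and 0.19 on both FPKM scales, and -0.19 to 0.082 with 1 left out. Slc4a9 over the average was 0.034 (library totals), 0.032 and 0.033 (FPKM), and -0.23 to 0.077 with 1 left out. The control-day test passed for Aqp2 on library totals and FPKM (adjusted p from 0.0409 to 0.04997) and for Slc26a4 in 5 alternatives (0.0235 to 0.0462). The cause was not tested.

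Correlations with Hmx2 that changed sign were Foxi1 at 0.066 (DESeq2 size factors), Slc4a1 at 0.133, 0.132 and 0.133 and Slc4a9 at 0.435, 0.434 and 0.435 (library totals, FPKM + 1, FPKM + 0.1), Slc26a4 at -0.389 (control rats alone), and Aqp3 at -0.122 and Slc4a1 at 0.0886 (water-loaded rats alone). With 1 library left out r ran from 0.323 to 0.618 for Aqp2, -0.298 to 0.108 for Aqp3, -0.211 to 0.0631 for Foxi1, -0.0967 to 0.246 for Slc26a4, -0.332 to 0.0290 for Slc4a1 and -0.273 to 0.0259 for Slc4a9. Under the other alternatives r with Aqp2 ran from 0.201 to 0.691. No correlation passed in any alternative. The lowest library held 35305 Hmx2 reads.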
